A study of Mus musculus with 27 samples.

Results

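The sarcomeric myosin heavy chain (MyHC) genes Myh1, Myh2, Myh3, Myh4, Myh6, Myh7, Myh8 and Myh7b were followed through polyA RNA-seq of C2C12 cells, an established line of mouse myoblasts that fuse into myotubes when they differentiate. The 8 genes were taken by symbol from the 24825 genes in the tables, and all 8 were found. The 3 populations compared were control cells, cells with retrovirally introduced full-length NFIA, and cells with the Δpro#3 mutant of NFIA, which lacks the C-terminal stretch of the proline rich domain. What the control cells carried in its place is not given in the sources used here. NFIA is a transcription factor of the nuclear factor I family. Samples were taken before differentiation (day 0), on day 7, and on day 7 following 4 h of 10 µM forskolin, which activates adenylyl cyclase and so raises cyclic AMP, with 3 samples in each of the 9 groups. By the sample labels, all day 7 cells, control cells included, had received an adipogenic cocktail of isobutylmethylxanthine, indomethacin, dexamethasone, insulin, T3 and rosiglitazone, so that day 7 was not the usual low-serum myotube culture. The labels do not say whether replicates came from separate cultures, and p-values measure only the spread between these samples. Values are FPKM, fragment counts scaled by gene length and by library size, and each library held between 9567769 and 27230965 fragments.

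A sarcomeric MyHC is the motor of the thick filament, and each fibre type of skeletal muscle is defined by the MyHC isoform it makes. Myh3 encodes the embryonic and Myh8 the perinatal isoform, both made by developing and regenerating fibres. Myh2, Myh1 and Myh4 encode the adult fast isoforms IIa, IIx and IIb. Myh7 encodes the slow (β-cardiac) isoform and Myh6 the α-cardiac isoform, and Myh7b is a related gene with low expression in muscle and heart. Myogenic bHLH factors such as MyoD and myogenin, with MEF2 proteins, switch on these genes as myoblasts leave the cell cycle and fuse.

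By position the genes form 3 groups in the mouse genome (build NCBIM37, the same assembly as mm9, with the GENCODE vM1 annotation). Myh3 (chr11:66891802-66915793), Myh2 (chr11:66984529-67011019), Myh1 (chr11:67013554-67038078), Myh4 (chr11:67051314-67073948) and Myh8 (chr11:67090626-67122136) lie in this order on the plus strand within 230335 bases. Myh3 stands 68735 bases from Myh2, while Myh2 and Myh1 are separated by 2534 bases. Myh6 (chr14:55560758-55585764) and Myh7 (chr14:55589525-55613471) lie on the minus strand 3760 bases apart, and Myh7b (chr2:155436948-155460043, plus strand) lies alone. Only uniquely mapped reads were counted by the authors, so fragments from stretches that are identical between paralogs were lost, and the level of each closely related gene is uncertain by that amount. Genes annotated on the opposite strand overlap Myh1, Myh2, Myh7 and Myh7b, and the counting was by strand.

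In control cells the clustered genes all rose from day 0 to day 7. At day 7 the share of the summed MyHC level held by some of them differed between the populations, as described below. The bases before the annotated starts of these genes are shown for this reason. All lie on chromosome 11, plus strand, were taken from RefSeq (build GRCm38.p6) and were matched exactly to NCBIM37. The window of Myh3 (chr11:66891552-66891801) is given first, with its E-box (CANNTG, searched on both strands, the recognition sequence of bHLH factors) in capitals.
Myh3: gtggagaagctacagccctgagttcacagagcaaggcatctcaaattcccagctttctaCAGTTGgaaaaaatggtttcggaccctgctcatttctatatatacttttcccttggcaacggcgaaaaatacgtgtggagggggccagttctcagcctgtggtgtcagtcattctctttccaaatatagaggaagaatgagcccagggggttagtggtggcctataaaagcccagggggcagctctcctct
The windows of Myh2 (chr11:66984279-66984528), Myh1 (chr11:67013354-67013553), Myh4 (chr11:67051064-67051313) and Myh8 (chr11:67090376-67090625) follow, with the longest run of bases common to these 4 windows in capitals.
Myh2: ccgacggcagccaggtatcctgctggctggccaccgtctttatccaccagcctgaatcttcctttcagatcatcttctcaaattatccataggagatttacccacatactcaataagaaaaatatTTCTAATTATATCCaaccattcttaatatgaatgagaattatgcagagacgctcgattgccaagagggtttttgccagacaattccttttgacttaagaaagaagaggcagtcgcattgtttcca
Myh1: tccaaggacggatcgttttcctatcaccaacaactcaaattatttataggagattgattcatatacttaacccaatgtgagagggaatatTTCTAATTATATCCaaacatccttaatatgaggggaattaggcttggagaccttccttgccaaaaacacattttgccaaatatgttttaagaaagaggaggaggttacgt
Myh4: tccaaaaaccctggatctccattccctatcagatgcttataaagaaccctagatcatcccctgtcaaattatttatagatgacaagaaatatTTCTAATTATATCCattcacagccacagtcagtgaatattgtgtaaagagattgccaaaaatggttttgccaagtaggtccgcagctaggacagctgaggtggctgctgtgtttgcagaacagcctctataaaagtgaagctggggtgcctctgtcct
Myh8: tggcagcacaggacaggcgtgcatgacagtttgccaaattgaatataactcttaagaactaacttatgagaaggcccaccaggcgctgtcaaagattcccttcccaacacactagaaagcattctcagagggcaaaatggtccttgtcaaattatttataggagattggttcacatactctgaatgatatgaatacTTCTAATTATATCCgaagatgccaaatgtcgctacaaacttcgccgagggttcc

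The 14-base run TTCTAATTATATCC began 125 bases before the RefSeq start of Myh2, 160 before that of Myh1, 158 before that of Myh4 and 54 before that of Myh8. Searched on both strands, it occurred in 4 of the 32851 RefSeq windows of 250 bases before a start (0.0122%), and these 4 windows were the ones it was read from. It was absent from the windows of Myh3, Myh6, Myh7 and Myh7b. An E-box lay in the windows of Myh3, Myh4, Myh8, Myh6, Myh7 and Myh7b and in neither that of Myh2 nor that of Myh1, against 66.2% of all windows. The nuclear factor I half-site TTGGC, searched on both strands, was in the windows of Myh3, Myh2, Myh1, Myh4, Myh8 and Myh6, against 41.5% of all windows, and the full palindromic nuclear factor I site, made of this half-site, a 5-base gap and its reverse complement, was in none of the 8 genes' windows, against 0.0365% of all windows. These matches describe letters in short windows and were not related to binding.

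The 3 genes of the slow and cardiac group each carry a microRNA in an intron, on the same strand (GENCODE vM1). Mir208a lies within Myh6 (chr14:55567897-55567979), Mir208b within Myh7 (chr14:55594537-55594613) and Mir499 within Myh7b (chr2:155448616-155448694). The mature sequences from RefSeq are given with the seed, bases 2 to 8, in capitals, because these genes fell together below.
miR-208a-3p: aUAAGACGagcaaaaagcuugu
miR-208b-3p: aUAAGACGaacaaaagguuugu
miR-499-5p: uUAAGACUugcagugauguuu
miR-208a-3p and miR-208b-3p share the seed UAAGACG, from which the seed of miR-499-5p, UAAGACU, departs in its last base. Mature microRNAs are not captured by polyA libraries, and their levels were not measured.

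In control cells all 8 genes rose from day 0 to day 7 and the leading isoform changed. At day 0 Myh3 stood at 69.1, 68.5 and 71.3 FPKM and made up 87.2% ± 0.24 (SD, n = 3) of the summed MyHC level. Myh1 followed at 4.73 FPKM ± 0.19 and Myh7 at 3.51 ± 0.20, Myh8 was at 1.00 ± 0.10, and Myh6, Myh7b, Myh2 and Myh4 lay between 0.448 and 0.129 FPKM. Neighbours in this order did not overlap, except Myh2 and Myh4.

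At day 7 Myh8 led in control cells with 339, 349 and 391 FPKM. Myh3, at 281, 275 and 316 FPKM, and Myh1, at 246, 250.5 and 316 FPKM, overlapped each other below it. Myh7 stood at 97.9 FPKM ± 4.8, Myh4 at 46.2 ± 1.6, Myh2 at 20.9 ± 3.0, Myh6 at 10.97 ± 1.5 and Myh7b at 5.35 ± 0.99, with no overlap between neighbours. The summed MyHC level rose from 79.9 FPKM ± 1.8 to 1102 ± 100.1, or from 0.0480% to 0.671% of all fragments. With the FPKM of each gene taken as log2(FPKM + 1) and compared by limma across all genes tested, where a gene was called when its Benjamini-Hochberg adjusted p was under 0.05 and it differed by more than 3-fold in FPKM + 1, all 8 MyHC genes were called higher at day 7, against 3.65% of all 12408 genes. The log2 difference was largest for Myh8 (7.49 ± 0.10 SE, adjusted p = 2.39e-18) and smallest for Myh3 (2.04 ± 0.17, adjusted p = 6.55e-09), the gene that was already high at day 0. A fold change on this scale understates the change of genes with low values. Genes were tested at a mean of at least 0.5 FPKM over the samples fitted. Myh8, Myh2, Myh4, Myh6 and Myh7b had a lower mean over all day 0 samples and reached this minimum through day 7 samples. The count of called genes therefore describes them and carries no weight as a count.

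**Figure D1:**
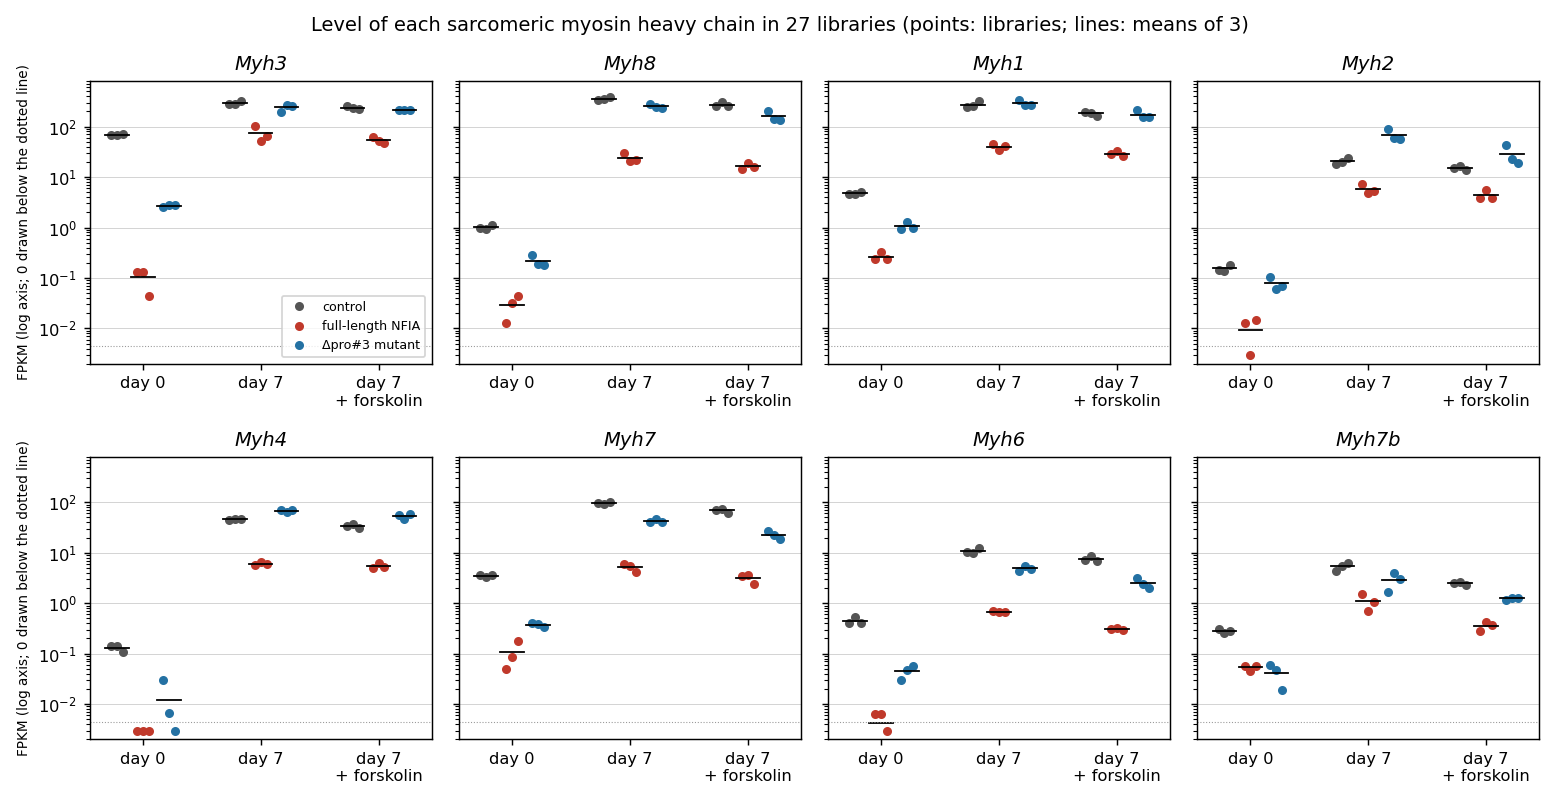
FPKM of each of the 8 genes (log axis, values of 0 drawn below the dotted line) in the 27 libraries, by time point on the x axis; points are libraries and short lines are the means of 3. The full-length NFIA points lie below the control points in every panel and at every time point, while the Δpro#3 mutant points lie below control at day 0 and above control for Myh2 and Myh4 at day 7.

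Before differentiation every sample of both NFIA populations lay below every control sample for each of the 8 MyHC genes, and the mean was lower with full-length NFIA than with the mutant for all but Myh7b. Differences could pass the test for Myh3, Myh1 and Myh7 only. Myh3, the embryonic isoform, was at 0.130, 0.132 and 0.0442 FPKM with full-length NFIA, and 2.51, 2.79 and 2.76 FPKM with the Δpro#3 mutant, against the 69.1, 68.5 and 71.3 FPKM of control cells. The 3 populations did not overlap. Full-length NFIA left Myh3 at 0.147% ± 0.072 of the control mean and the mutant left it at 3.86% ± 0.22. On the log2 scale the difference from control was -6.00 ± 0.048 (SE, adjusted p = 5.05e-14) with full-length NFIA and -4.26 ± 0.048 (adjusted p = 2.87e-12) with the mutant, and the mutant exceeded full-length NFIA by 1.74 ± 0.048 (adjusted p = 3.88e-10).

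Myh1, the IIx isoform, was at 4.64, 4.59 and 4.95 FPKM in control cells, at 0.239, 0.322 and 0.234 with full-length NFIA and at 0.946, 1.30 and 0.979 with the mutant. Myh7, the slow isoform, was at 3.63, 3.28 and 3.62 FPKM in control cells, at 0.0494, 0.0879 and 0.182 with full-length NFIA and at 0.405, 0.393 and 0.336 with the mutant. Again no group overlapped another. With full-length NFIA, Myh1 differed from control by -2.18 ± 0.072 (adjusted p = 4.92e-10) and Myh7 by -2.03 ± 0.066 (adjusted p = 4.21e-10). With the mutant, Myh7 differed by -1.71 ± 0.066 (adjusted p = 4.09e-09), and Myh1 by -1.47 ± 0.072 (adjusted p = 2.69e-08), short of 3-fold in FPKM + 1 but called lower with a pseudocount of 0.1 (-2.05) and with limma-voom (-2.14).

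Only these 3 genes reached the minimum mean of 0.5 FPKM over the day 0 samples, and they did so through the control cells. Of them, 3 were called lower with full-length NFIA, against 2.78% of all 12105 genes tested, and 2 with the mutant, against 1.32%. Myh3 alone was called higher in mutant cells than in full-length NFIA cells, against 0.925% of all genes, and Myh1 was also called with a pseudocount of 0.1 (1.68) and with limma-voom (1.97), and Myh7 with limma-voom (2.14). Since the 3 genes passed the minimum only because control cells made them, these counts describe them and do not stand for the family.

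The other 5 genes were read from few fragments at day 0, and for each of them every control sample exceeded every sample of both NFIA populations. This gave an exact permutation p = 0.1 (2-sided, 3 against 3), the smallest that the design allows, so that these differences cannot pass 0.05. Over the 3 libraries of a group, Myh8 had 475 fragments in control cells, 10 with full-length NFIA and 95 with the mutant, a ratio of control to full-length NFIA of 38.3 after correction for depth (95% counting interval 20.7 to 80.5). Myh6 had 211, 2 and 20 fragments, and control exceeded full-length NFIA 85.1 times (23.3 to 708) and the mutant 9.92 times (6.26 to 16.6). Myh4 had 60 fragments in control cells, 5 with the mutant and 0 with full-length NFIA, which made it at least 12.7-fold lower there by the same counting interval. With 3 fragments over the group assumed in place of the count of 0, the ratio after correction for depth would be 16.1, a reference value and not a bound.

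Myh2 had 73, 3 and 34 fragments, and control exceeded full-length NFIA 19.6 times (6.46 to 97.4) and the mutant 2.02 times (1.33 to 3.13). Myh7b had 134, 20 and 18 fragments, 5.41 times (3.37 to 9.14) and 6.997 times (4.26 to 12.2) higher in control than in the respective NFIA population. The mutant and full-length NFIA overlapped for Myh7b and for Myh4, and for Myh2, Myh6 and Myh8 all 3 mutant samples were above all 3 full-length samples (exact permutation p = 0.1). Intervals cover counting error only. In bulk samples such as these, fewer cells making a transcript and less transcript per cell cannot be told apart.

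With full-length NFIA every one of the 8 MyHC genes stood below control at day 7, and no library of one population reached into the other. The summed level was 201, 126 and 146 FPKM with full-length NFIA against 1038, 1050.3 and 1217 FPKM in control cells. All 8 genes were called lower, against 3.30% of the 12324 genes tested. On the log2(FPKM + 1) scale the differences were largest for Myh7 and Myh8, and in percent of control Myh7 and Myh6 were lowest. Myh7 was at 6.08, 5.47 and 4.06 FPKM, 5.32% ± 1.1 of the control mean (log2 difference -4.01 ± 0.11, adjusted p = 7.50e-10), and Myh8 was at 29.9, 20.6 and 21.9 FPKM, 6.71% ± 1.4 of control (-3.86 ± 0.13, adjusted p = 2.28e-09).

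Myh6 was at 0.688, 0.663 and 0.662 FPKM, or 6.12% ± 0.13 of control. Myh4 (5.77, 6.46 and 5.99 FPKM) stood at 13.2% ± 0.77 and Myh1 (44.8, 34.3 and 40.5 FPKM) at 14.7% ± 1.9 of control, with log2 differences of -2.74 ± 0.058 (adjusted p = 1.69e-10) and -2.73 ± 0.13 (adjusted p = 2.60e-08). Myh7b stood at 20.6% ± 7.8, Myh3 at 25.8% ± 9.3 and Myh2 at 27.7% ± 6.2 of control. The order of isoforms thus changed, with Myh3 first at 105, 53.0 and 66.4 FPKM, followed by Myh1 and then Myh8, none overlapping. For Myh7b the difference of -1.60 ± 0.23 (adjusted p = 9.98e-05) passed 3-fold narrowly, and it was -1.57 without control replicate 2, -1.50 without control replicate 3 and -1.46 without NFIA replicate 2 and -1.54 under median-ratio scaling, all short of it.

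With the Δpro#3 mutant the summed MyHC level at day 7, 1010.4, 958 and 923 FPKM, lay just under that of control cells, yet the isoforms had moved in opposite directions. Myh2, the IIa isoform, was at 88.3, 59.5 and 56.8 FPKM against 18.4, 20.1 and 24.1 FPKM in control cells, 327% ± 83.8 of the control mean and higher in 3 of 3 samples (log2 difference 1.64 ± 0.18, adjusted p = 6.23e-05). It was the 1 MyHC gene called at more than 3-fold, against 0.933% of all genes called higher. By limma 0 were called lower at more than 3-fold, against 0.503% of all genes, and limma-voom also called 0 lower. The 4 genes that were lower by adjusted p without the 3-fold threshold are given below. Myh4, the IIb isoform, was at 69.6, 64.1 and 69.5 FPKM against 44.4, 46.5 and 47.6 in control cells, or 147% ± 6.9 of control (0.54 ± 0.058, adjusted p = 5.24e-05).

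By adjusted p alone, Myh2 and Myh4 were higher, against 21.3% of all genes, and 4 were lower, against 27.5%, shares that leave little to be read from the counts themselves. The 4 lower genes were Myh7 at 40.3, 46.6 and 41.5 FPKM, 43.7% ± 3.4 of control (-1.18 ± 0.11, adjusted p = 2.45e-05), Myh6 at 44.5% ± 5.1 of control (-1.02 ± 0.098, adjusted p = 2.71e-05), Myh7b at 54.3% ± 22.2 (adjusted p = 0.0217, and 0.0604 to 0.0771 without control replicate 2 or 3 or mutant replicate 1) and Myh8 at 69.8% ± 7.3 (-0.52 ± 0.13, adjusted p = 0.0075). For each of these 4 genes the mutant samples lay below the control samples without overlap. Myh1, at 331, 266 and 264 FPKM, overlapped control (log2 difference 0.086, 95% confidence interval -0.20 to 0.37), and did not pass the test. Myh3, at 195, 269 and 254 FPKM against 281, 275 and 316 in control cells, did not overlap control but did not pass either, with an interval of -0.76 to 0.18.

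One mutant library, replicate 1, stood apart at day 7: its adipocyte markers summed to 2019 FPKM against 618 and 726 in the other two mutant libraries, and it also had the highest Myh2 and Myh1 and the lowest Myh3 and Myh7b of the group. Without it, Myh2 still exceeded control, by 1.44 on the log2 scale (adjusted p = 8.46e-05), but by less than 3-fold, and this was also so without control replicate 1 (1.56). Compared with full-length NFIA, the mutant cells had more of every MyHC gene at day 7. All but Myh7b, 7 genes, were called higher, against 2.60% of all genes, with log2 differences from 1.71 ± 0.21 for Myh3 to 3.34 ± 0.18 for Myh2 and 3.34 ± 0.13 for Myh8. Without full-length NFIA replicate 2 the difference for Myh3 was 1.49, short of 3-fold, and with limma-voom Myh7b was called too (1.62).

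**Figure D2:**
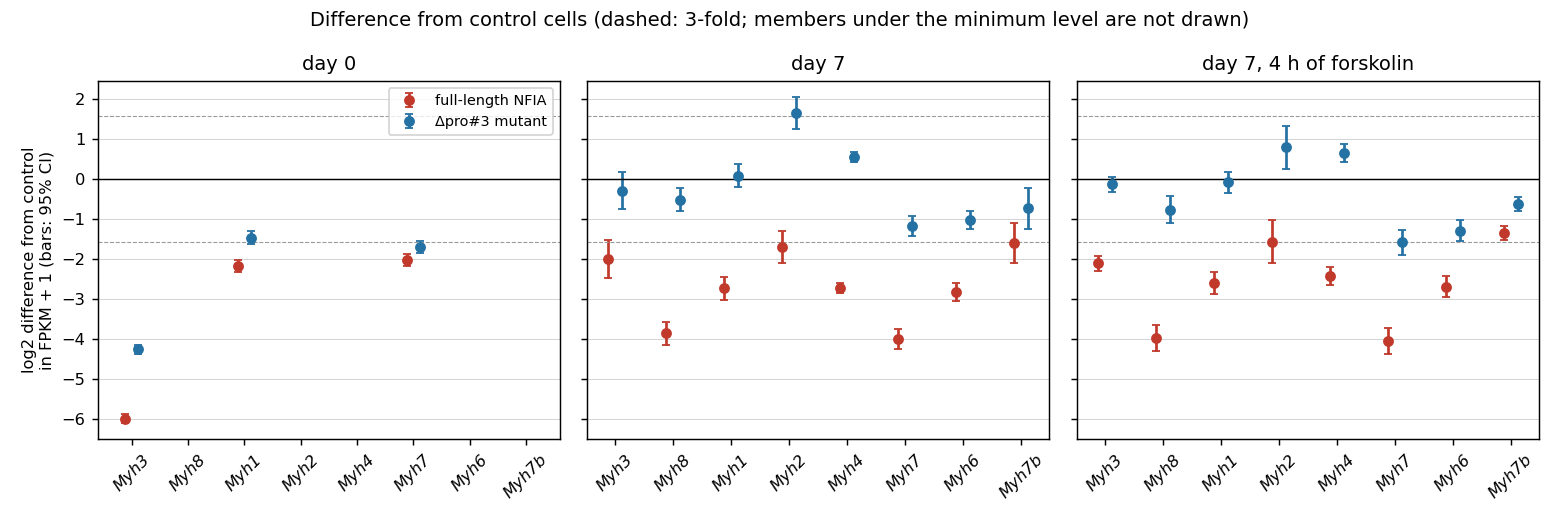
Log2 difference from control cells in FPKM + 1 for full-length NFIA and for the Δpro#3 mutant at the 3 time points; points are limma estimates, bars 95% confidence intervals, dashed lines 3-fold, and the 5 genes under the minimum level at day 0 are not drawn. At day 7 the full-length NFIA points lie between -1.60 and -4.01, and the mutant points run from 1.64 for Myh2 down to -1.18 for Myh7.

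The make-up of the MyHC RNA within each library, which needs no scaling between libraries, showed the same separation, and is given as a description. In control cells at day 7 the embryonic and perinatal genes Myh3 and Myh8 held 59.0% ± 0.80 of the summed FPKM, the adult fast genes 30.6% ± 1.1 and the slow and cardiac genes 10.4% ± 0.32. With the mutant these shares were 50.9% ± 3.5, 43.8% ± 4.1 and 5.26% ± 0.64, and no mutant library overlapped a control library in any of the 3 classes. Within the first class the Myh8 share fell from 32.7% to 26.0% without overlap. The Myh3 share, 25.0% against 26.4% in control cells, overlapped control. The Myh2 share was 1.89% ± 0.11 in control cells, 7.04% ± 1.5 with the mutant and 3.68% with full-length NFIA. Neither NFIA population overlapped control in it. The shares of Myh1 and Myh4 also rose with the mutant without overlap, from 24.5% to 29.7% and from 4.20% to 7.03%. With full-length NFIA the embryonic and perinatal share, 62.0% ± 4.6, and the adult fast share, 33.5% ± 4.1, overlapped those of control cells, while the slow and cardiac share was 4.51% ± 0.80.

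Within the developmental pair, full-length NFIA had Myh3 at 46.6% ± 5.2 and Myh8 at 15.4% ± 0.80, where control cells had 26.4% ± 0.56 and 32.7% ± 0.54. At day 0 the full-length NFIA shares rested on 79, 96 and 40 MyHC fragments a library and are imprecise. Myh1 was then the largest component, at 46.4% ± 5.4, against 5.91% ± 0.11 in control cells.

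**Figure D3:**
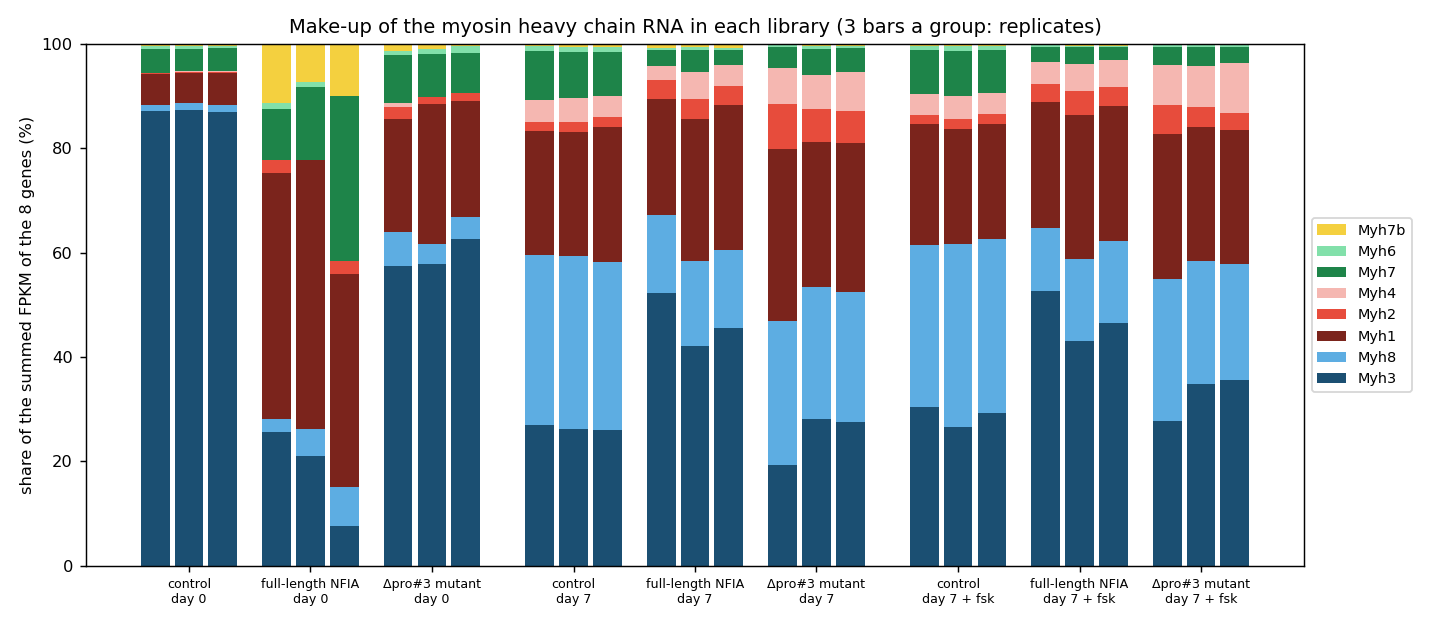
Share of the summed FPKM of the 8 genes held by each gene (y axis, %) in each of the 27 libraries, 3 bars a group. Myh3 fills 87.2% of the control bars at day 0, and at day 7 the red fast segments are widest in the mutant bars, at 43.8% in the mean.

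From day 0 to day 7 MyHC genes rose in all 3 populations, from very different starting levels. With full-length NFIA 6 of the 8 were called higher, against 5.38% of all genes, while Myh6 (0.73 ± 0.080) and Myh7b (0.98 ± 0.18) stayed below 3-fold in FPKM + 1. Their mean FPKM went from 0.00431 to 0.671 and from 0.0534 to 1.10, and both were called higher with a pseudocount of 0.1 (2.89 and 2.91) and with limma-voom (6.23 and 4.09). With the mutant all 8 were called higher, against 3.91%. At day 0 all 8 genes were below the minimum of 0.5 FPKM with full-length NFIA, and all but Myh3 and Myh1 with the mutant. They passed it through other groups, so these counts describe the genes and carry no weight as counts. Myh3 rose by 6.05 ± 0.17 with full-length NFIA and by 6.01 ± 0.17 with the mutant, compared with 2.04 ± 0.17 in control cells, which had started high. The rise of Myh3 was therefore 4.00 ± 0.24 larger with full-length NFIA (adjusted p = 2.24e-10) and 3.97 ± 0.24 larger with the mutant (adjusted p = 1.36e-09) than in control cells.

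The change over time differed between populations for most of the family when differences were called by adjusted p alone, but this threshold was passed by a large part of all genes. Relative to control cells, full-length NFIA gave 7 smaller rises, against 40.1% of all genes, and 1 larger rise, that of Myh3, against 31.1%. Of the 7, 4 were still called as smaller rises with a pseudocount of 0.1, where the estimate for Myh1 turned to a larger rise. With limma-voom on fragments the estimate turned to a larger rise for all of them but Myh7b, passing the test for 4 of these 6. The mutant gave 5 larger rises than control (Myh3, Myh2, Myh1, Myh4 and Myh7), against 18.9% of all genes, and 1 smaller rise, that of Myh6, against 25.9%, which turned to a larger rise with a pseudocount of 0.1 and with limma-voom. Myh8 (0.20) did not pass, but passed as a larger rise with a pseudocount of 0.1 (1.29) and with limma-voom (1.71). Between the populations, the mutant gave 7 larger rises than full-length NFIA, against 33.9%, of which limma-voom kept those of Myh1 and Myh4. For Myh3 the difference between these populations was -0.033, with an interval of -0.54 to 0.47, on log2(FPKM + 1), and it passed as a smaller rise with the mutant with a pseudocount of 0.1 (-2.09, adjusted p = 1.12e-05) and with limma-voom (-2.90, adjusted p = 0.0039).

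After 4 h of forskolin the mean level of each MyHC gene was below that of untreated cells in each population, and for part of the genes the difference passed the test. The summed level was 816 FPKM ± 56 in control cells, 113 ± 8.7 with full-length NFIA and 656 ± 91 with the mutant. By adjusted p alone, 5 of 8 genes were lower in control cells, against 13.5% of all 12245 genes, 5 with full-length NFIA, against 41.5%, and 7 with the mutant, against 23.9%. In control cells these were Myh1, at 192, 189.7 and 166 FPKM against 246, 250.5 and 316 without forskolin (-0.56 ± 0.14, adjusted p = 0.00713), Myh4 (-0.44), Myh6 (-0.49), Myh7 (-0.50) and Myh7b (-0.86 ± 0.18, adjusted p = 0.00258). The call of Myh7 was lost without control day 7 replicate 3 (-0.46, adjusted p = 0.0602) or forskolin replicate 3 (-0.43, adjusted p = 0.0785).

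With full-length NFIA they were Myh1 (-0.43), Myh6 (-0.35), Myh7 (-0.55), Myh8 (-0.53) and Myh7b (-0.61), a count that ran from 2 to 6 when single libraries were left out and was 2 without NFIA day 7 replicate 1, and median-ratio scaling removed Myh1. Every gene but Myh3 was lower with the mutant, the largest difference being that of Myh2, at 43.7, 23.2 and 18.8 FPKM against 88.3, 59.5 and 56.8 (-1.29 ± 0.24, adjusted p = 0.000518). The call of Myh4 in the mutant (-0.32) was lost without mutant forskolin replicate 2 (-0.22, adjusted p = 0.0618). Myh3 did not pass the test in any population, with log2 differences of -0.31, -0.43 (adjusted p = 0.0508) and -0.16. It was called lower in control cells with only the groups compared (adjusted p = 0.0137), and in full-length NFIA cells with limma-voom (0.0289), with a minimum of 5 FPKM (0.0441) and without NFIA day 7 replicate 2 (0.00384), NFIA forskolin replicate 1 (0.0319) or mutant day 7 replicate 1 (0.0397). Differences in response between populations passed the test in 1 case, Myh2 in mutant against full-length cells (-0.97 ± 0.34, adjusted p = 0.0493, against 5.88% of all genes), and this was lost with a pseudocount of 0.1 (adjusted p = 0.075), with limma-voom (0.0579) and without most single libraries.

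**Figure D4:**
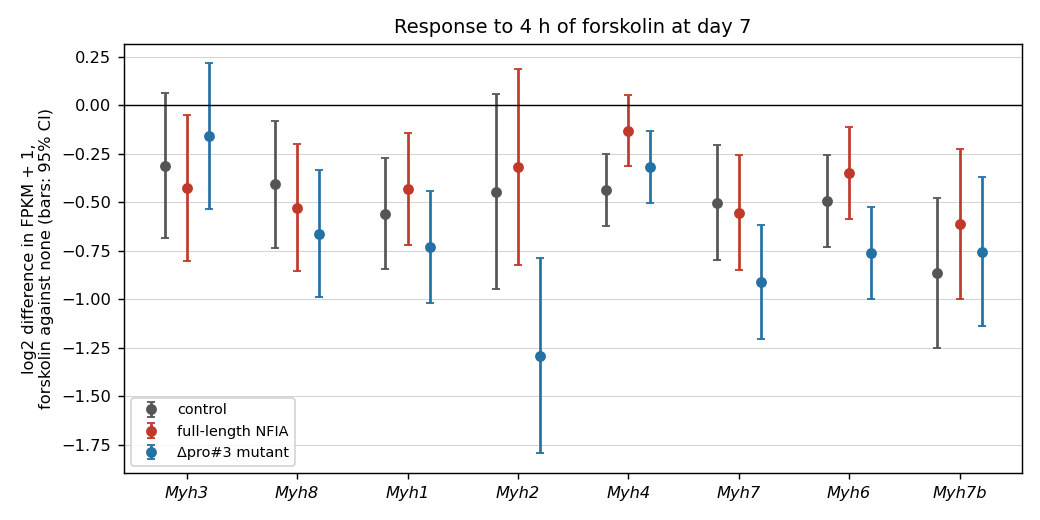
Log2 difference in FPKM + 1 between day 7 cells with and without 4 h of forskolin, by gene and population; points are limma estimates and bars 95% confidence intervals. All 24 points lie below 0, from -0.13 for Myh4 with full-length NFIA to -1.29 for Myh2 with the mutant.

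The construct differences were repeated among forskolin-treated samples, which are separate libraries of the same populations. With full-length NFIA 6 genes were called lower than control, against 3.77% of all 12121 genes, and Myh2 (-1.57 ± 0.24) and Myh7b (-1.35 ± 0.081) passed by adjusted p but fell short of 3-fold in FPKM + 1. In FPKM they stood at 29.5% ± 6.2 and 14.6% ± 3.1 of control, and both were called lower with a pseudocount of 0.1 (-1.76 and -2.49) and with limma-voom (-1.77 and -2.77). With the mutant Myh7 was called lower at 26.9, 22.1 and 18.5 FPKM against 69.9, 75.0 and 62.0 FPKM (-1.59 ± 0.14, adjusted p = 9.59e-06), against 0.685% of all genes, though 3-fold was missed when control replicate 1 or 2 or mutant replicate 2 or 3 was left out (-1.57, -1.52, -1.58 and -1.46). By adjusted p alone the same 4 genes as before treatment, Myh7, Myh6, Myh8 and Myh7b, were lower with the mutant, against 27.1%, and the same 2, Myh2 (0.80 ± 0.24) and Myh4 (0.66 ± 0.10), were higher, against 19.5%. Mutant replicate 1 again had the highest Myh2 and an adipocyte marker sum of 899.7 FPKM, against 545 and 581 in the other two, and without it Myh2 differed by 0.45 (adjusted p = 0.0231). The Myh2 difference after forskolin did not pass without control replicate 1 (adjusted p = 0.0506) or 3 (0.0678) or with no filter (0.0528). The mutant had 6 genes called higher than full-length NFIA, against 2.89%. Of the others, Myh6 (1.40) was also called with a pseudocount of 0.1 (2.63) and with limma-voom (2.91), and Myh7b (0.72) with limma-voom (1.78).

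Genes whose products build or regulate the thick filament were read from lists of known members, beside the percentages of all genes called that are given above, with 0.503% called lower for the mutant at day 7. Of 16 thick filament partners (myosin light chains, myosin binding proteins, titin and M-band proteins), 13 were tested at day 7 and 12 were called lower with full-length NFIA, with a median log2 difference of -2.22 against -0.080 over all genes, and with the mutant 0 of 13 were called in either direction (median -0.091 against -0.037). Mybpc1, the slow myosin binding protein C, fell from 258 to 7.03 FPKM with full-length NFIA and Mybpc2, its fast counterpart, from 39.1 to 0.831 FPKM. Of 10 genes of myosin folding and turnover, 5 were called lower with full-length NFIA, among them Trim63, a ubiquitin ligase that marks MyHC for degradation (55.4 to 4.07 FPKM), and none with the mutant. At day 0, 8 of 9 tested partners were called lower with full-length NFIA and 7 of 9 with the mutant, with Mylpf, the fast regulatory light chain, going from 340 FPKM in control cells to 1.80 and 18.4 FPKM. As with the MyHC genes, listed genes such as Mylpf reached the minimum level at day 0 through the control cells, so these and the other day 0 counts of the lists describe the genes and carry no weight as counts.

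All 10 fast fibre genes were called lower at day 7 with full-length NFIA, as were 7 of 8 tested slow fibre genes and 5 of 6 developmental muscle genes. With the mutant the fast list had no call (median 0.019) and neither had the developmental list, and the slow list had 1, Csrp3, a Z-disc protein of slow and cardiac muscle, which fell from 367 to 77.3 FPKM (-2.23 ± 0.14, adjusted p = 2.19e-06). The lists share members such as Mylpf and Mybpc2 with one another. After forskolin the counts were 10 of 10, 6 of 8 and 5 of 6 with full-length NFIA, and Csrp3 was again the 1 call with the mutant. At day 0 both NFIA populations had 7 of 8 fast, 4 of 6 slow and 5 of 6 developmental genes called lower.

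Among 30 listed regulators of MyHC transcription, 22 were tested at day 0 and 4 were called lower with full-length NFIA and 2 with the mutant. Myog, which encodes myogenin, was at 162 FPKM in control cells, at 1.96 with full-length NFIA (-5.78 ± 0.062, adjusted p = 1.55e-13) and at 16.3 with the mutant (-3.24 ± 0.062, adjusted p = 3.65e-11). Tead4, a TEAD factor of muscle genes, was the other call with the mutant. Myod1, the myoblast determination factor, was at 43.7 FPKM ± 2.6 in control cells, 17.8 ± 0.43 with full-length NFIA and 41.7 ± 1.5 with the mutant, and the mutant and control ranges overlapped (adjusted p = 0.219). At day 0 the mutant thus had Myh3 at 3.86% and Myog at 10.1% of control while Myod1 stood at 95.4%.

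At day 7, 6 of 23 tested regulators were called lower with full-length NFIA, and 1 with the mutant. Myf6, which encodes MRF4, the bHLH factor of maturing myotubes, was at 126 FPKM in control cells, 0.544 with full-length NFIA and 36.0 with the mutant (-1.77 ± 0.12, adjusted p = 3.58e-06). Myog was at 1275 FPKM ± 90.0 in control cells, 199.6 ± 44.6 with full-length NFIA and 489 ± 124 with the mutant. The mutant cells thus had Myog at 38.3% of control (-1.41 ± 0.19, adjusted p = 0.000259) beside the MyHC sum near that of control. Myod1 was by then lower in the mutant, at 41.4 FPKM ± 8.3 against 73.2 ± 7.1 in control cells without overlap (-0.82 ± 0.17, adjusted p = 0.00332), and after forskolin at 55.0 ± 7.8 against 78.2 ± 1.1 (-0.51 ± 0.12, adjusted p = 0.00499).

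Each MyHC gene was also set beside the genes with the most similar profile over the 27 samples, by Pearson correlation of log2(FPKM + 1) among 12372 other genes; all points share the same 9 groups, so the values describe likeness only. Between the MyHC genes r ran from 0.777 for Myh3 and Myh6 to 0.989 for Myh1 and Myh8. Myh3 was closest to Actc1 (r = 0.993), the cardiac actin made by embryonic muscle, followed by Mylpf and Mymk, the fusion protein Myomaker. Myh8 was closest to Casq1 (0.996), the fast calsequestrin, and Myh1 to Actn2 (0.995), a Z-disc α-actinin that was also second for Myh8. Myh7 was closest to Trim63 (0.995), Alpk3 and Trim54, and Myh6 to Tcap (0.987), the titin cap, which was at 109 FPKM in control cells, 3.48 with full-length NFIA and 22.3 with the mutant at day 7.

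Myh2 was closest to Prss36 (0.980), Myot and Myo18b, and Myh4 to Myot (0.989), Smpx and Ckmt2. Myot, which encodes the Z-disc protein myotilin, showed the Myh2 pattern at day 7, with 27.7 FPKM ± 4.0 in control cells, 2.99 ± 0.63 with full-length NFIA and 57.4 ± 0.88 with the mutant. Myh7b was closest to Sohlh2, Orai1 and Tmem62, with r of 0.972, 0.970 and 0.969, and none of these 3 is a contractile protein gene.

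Some facts of the whole series bear on these values. Nfia, the introduced gene, was between 225 and 594 FPKM in every full-length NFIA and mutant library. At day 0 Nfia was at 225 to 250 FPKM with full-length NFIA and at 397 to 423 with the mutant. After forskolin it was at 497 to 594 and at 262 to 344 FPKM, and at day 7 without forskolin the ranges overlapped. In control libraries of day 7 it was at most 0.253 FPKM, while 1 control library of day 0 had 7.35 FPKM against 0.175 and 0.879 in the others. The adipocyte markers (8 genes, Adipoq, Plin1 and Fabp4 among them) rose with full-length NFIA, all 8 being called higher at day 7, against 4.87% of all genes, with sums of 13448 to 14934 FPKM against 347 to 383 in control cells and 618 to 2019 with the mutant. The 5 myoblast markers summed at day 7 to 259 to 327 FPKM with full-length NFIA, to 725 to 830 in control cells and to 1037 to 1165 with the mutant. Of these 5, 1 was called lower with full-length NFIA, against 3.30% of all genes. With the mutant 0 were called, against 0.503% of all genes lower and 0.933% higher. Myod1, which is on this list, was lower with the mutant, as given above. Cardiac markers (Nppa, Nppb, Myl7, Tnni3, Ryr2, Hcn4, Gata4 and Tbx5) summed to at most 9.23 FPKM in any library, with 2 or 3 of the 8 genes at 1 FPKM or more in all groups but one, which had 1, although Myh6 and Myh7 are also the cardiac MyHC genes. Of 4 tested other myosin heavy chains, Myh10, a non-muscle isoform, rose from 10.1 to 43.1 FPKM with full-length NFIA at day 7 (1.99 on the log2 scale). Smooth muscle markers at day 7 had sums of 452 to 641 FPKM with full-length NFIA, 1309 to 1395 in control cells and 1303 to 1363 with the mutant, and of 6 fibroblast markers 1 was called lower with full-length NFIA and 1 higher with the mutant. The part of these cell-type markers in the MyHC differences was not tested. Median-ratio scaling moved all log2 differences of a comparison by at most 0.17, the largest shift being between full-length NFIA and control after forskolin.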

How the data were processed

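PolyA RNA of 27 mouse C2C12 libraries (TruSeq Stranded; 9 groups of 3) was sequenced. Reads were aligned by the authors to mm9 with STAR 2.5.3a, uniquely mapped fragments of the matching strand were counted per gene, and the FPKM values used here were calculated by the authors and deposited for each sample, without scaling between samples. The annotation behind the 24825 genes is not given in the sources used here. The deposited gene length column served to turn FPKM back into fragments, and 100.0% of values came out whole, which gave 9567769 to 27230965 fragments a library (median 17707223).

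Groups were taken from the sample labels. Log2(FPKM + 1) values of genes with a mean of at least 0.5 FPKM were fitted with limma 3.58.1 (R 4.3.3) with a mean-variance trend, and p-values were adjusted by Benjamini-Hochberg over all genes of the fit. Genes were called at an adjusted p under 0.05 with more than 3-fold difference for constructs and days, and at the adjusted p alone for forskolin and for differences between changes. MyHC genes under the minimum at day 0 were compared with exact permutation tests (scipy 1.17.1, Python 3.11.15) and exact counting intervals at the 95% level. On simulated data made for full-length NFIA against control at day 0 (11911 genes), 173 of 197 tested changed genes were called (87.8%), with 1 unchanged gene called. The simulated spread beyond counting error had 1 fixed value for all genes and was not taken from these replicates. The simulation covers the 3-fold rule only, and not the calls at the adjusted p alone.

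Genes named beside the 8 MyHC genes were Myod1 and Myog, the 2 largest falls and the largest rise among the called genes of each list for each construct against control, the 3 genes closest in profile to each MyHC gene, and Nfia as the check of the constructs. The MyHC genes and lists were chosen with earlier results of these data known. Replicate numbers did not pair the samples: correlations between same-numbered samples ran from -0.173 to 0.131. No 2 replicates agreed within sampling noise (chi-square per gene 1.52 to 14.2 over 27 pairs). Alternatives were another pseudocount, filter or scaling, no trend, limma-voom on fragments, a replicate block, only the groups compared, and leaving out each library.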

Additional observations from a re-analysis of the deposited data

Results flagged for a closer look

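Changes over time differed between the populations by limma's interaction test (adjusted p under 0.05) in 21 cases. A large part of all 12408 genes passed this threshold. With full-length NFIA minus control, 40.1% passed as smaller and 31.1% as larger changes. With the mutant minus control these shares were 25.9% and 18.9%, and with the mutant minus full-length NFIA 29.5% and 33.9%. Given here is the difference between the log2 changes from day 0 to day 7. With full-length NFIA minus control this was 4.00 for Myh3, -0.55 for Myh1, -1.50 for Myh2, -2.56 for Myh4, -2.31 for Myh6, -1.98 for Myh7, -2.90 for Myh8 and -1.32 for Myh7b. The negative values, except that of Myh7b, turned positive with limma-voom on fragments, and that of Myh1 also with a pseudocount of 0.1.

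With the mutant minus control the difference was 1.55 for Myh1, 1.74 for Myh2, 3.97 for Myh3, 0.70 for Myh4, 0.53 for Myh7 and -0.55 for Myh6, the last turning positive with limma-voom and with a pseudocount of 0.1. With the mutant minus full-length NFIA it was 2.11 for Myh1, 3.25 for Myh2, 3.26 for Myh4, 1.75 for Myh6, 2.51 for Myh7, 3.10 for Myh8 and 0.88 for Myh7b, and of these only Myh1 and Myh4 passed with limma-voom.

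The response to forskolin differed in 1 case, Myh2 in mutant minus full-length NFIA cells (-0.97, limma adjusted p = 0.0493), and this was lost under most alternatives. Groups of 3 were not searched for outlying samples.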

How the results depend on the processing

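The replicate block changed the call of 0 of 153 MyHC comparisons by limma (153 kept their direction and side of the threshold), and every library left out in turn kept 2196 such results, lost 32 calls, gained 13 and reversed 0. The change from day 0 to day 7 with full-length NFIA minus control reversed with limma-voom for Myh1 (1.35), Myh2 (2.14), Myh4 (2.03), Myh6 (1.64), Myh7 (1.10) and Myh8 (1.22), and with a pseudocount of 0.1 for Myh1 (0.97). Myh6 reversed for the mutant minus control with a pseudocount of 0.1 (0.77) and limma-voom (2.12). For full-length NFIA minus control the MyHC genes with smaller rises numbered 4 (pseudocount 0.1) and 0 (limma-voom) and those with larger rises 2 and 5.

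Smaller rises with the mutant minus control numbered 0 under a pseudocount of 0.1, a minimum of 5 FPKM or limma-voom, and with the mutant minus full-length NFIA 1 under the first and last of these, with 2 larger rises under limma-voom. At day 0 a minimum of 5 FPKM, under which fewer genes are tested, left 1 gene lower with each construct, and 2 (pseudocount 0.1) or 3 (limma-voom) were higher in mutant cells relative to full-length NFIA cells. After forskolin 0 genes were lower with the mutant than in control under median-ratio scaling and 2 under limma-voom. The forskolin response of control cells gave 3 lower genes with a minimum of 5 FPKM and 8 with only the groups compared, and full-length NFIA minus control gave 1 higher under median-ratio scaling. The Myh2 difference in response was called in 0 genes with a pseudocount of 0.1, no filter, no trend, limma-voom or only the groups compared. The cause of these was not tested.

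Leaving out single libraries gave 0 to 1 gene higher with the mutant at day 7, 0 to 1 lower with it after forskolin, 1 to 2 smaller rises with the mutant minus control, 2 to 6 forskolin responses with full-length NFIA, and 0 to 1 (full-length NFIA minus control, higher), 0 to 1 (mutant minus control, lower) and 0 to 2 (mutant minus full-length NFIA, lower) differences in response. Over all genes, limma-voom raised 20 of 42 counts of calls by over 1.5 times and a pseudocount of 0.1 raised 19. Shares taken from fragments in place of FPKM moved by more than the spread between replicates in 6 of 99 cases. Myh7b at day 7 with full-length NFIA fell short of 3-fold under median-ratio scaling (-1.54). Depth limits the day 0 values of full-length NFIA cells most, where a library held 40 to 96 MyHC fragments.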

Other observations

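Myhas (listed as Gm12300 in GENCODE vM1), an antisense RNA within the adult fast cluster that overlaps Myh1 on the other strand, was read after its values were seen. At day 7 it was at 0.459 FPKM in control cells, 0.0697 with full-length NFIA and 1.08 with the mutant, from 17, 3 and 44 fragments over 3 libraries. The mutant exceeded full-length NFIA by 0.93 ± 0.16 on the log2 scale (limma adjusted p = 0.000622), which is under 3-fold in FPKM + 1 because the levels lie near or below the pseudocount, and the ranges of mutant and control overlapped. After forskolin the levels were 0.523, 0.0928 and 1.01 FPKM. The order of the populations was that of Myh2 and Myh4.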
